A study of Mus musculus with 6 samples.

Results

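The BCL2 family sets whether a neuron keeps its mitochondria intact. Antiapoptotic members (BCL2, BCL-XL, BCL-W and MCL1) hold the pore-forming effectors BAX and BAK in check, and BH3-only members are made or activated under stress and bind the antiapoptotic proteins, the effectors or both. When the effectors form pores, cytochrome c leaves the mitochondria and the apoptosome activates caspases. In developing neurons this pathway removes cells that lack trophic support, and harakiri (Hrk, also called DP5) is a BH3-only gene known for its induction in neurons deprived of trophic factor or of depolarizing potassium.

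Here 10 genes of the family were described, chosen by symbol: the antiapoptotic genes Bcl2, Bcl2l1, Bcl2l2 and Mcl1, the effector genes Bax and Bak1, and the BH3-only genes Bcl2l11, Bbc3, Pmaip1 and Hrk. Each symbol has 1 locus among the 47086 loci of the deposited table, and all 10 were among the 13195 loci tested. The libraries are total RNA from primary hippocampal neuron cultures of C57BL/6 mice after 14 days in vitro, with 3 libraries from wild type (WT) and 3 from *Fmr1* KO pups. The cultures were begun from newborn pups, with no drug named for these libraries, and the methods describe male KO mice and WT littermates from heterozygous mothers without tying a sex or litter to single libraries. *Fmr1* encodes FMRP, an RNA-binding protein that represses translation and is lost in fragile X syndrome, and no promoter or cell type is named that would limit the KO. The values are FPKM, fragment numbers scaled to transcript length and to library size, so levels can be compared between genes per length. The comparison asks which family transcripts differ between the genotypes, and nothing in the labels says whether libraries of a genotype came from separate cultures, so p-values measure the spread between these libraries.

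The check of the targeted gene did not separate the genotypes. The *Fmr1* FPKM was 19.0, 19.5 and 19.7 in WT and 23.1, 21.8 and 18.5 in the libraries labelled *Fmr1* KO. The log2 change was 0.12 (95% interval -0.06 to 0.30). The value covers the whole locus and does not tell an intact from a disrupted transcript. The labels are therefore unchecked by this gene, and every direction below rests on them. The median FPKM of the tested loci was 10.1 in every library, the read depth is unknown, and no counting error can be given. Pan-neuronal markers were high throughout, with 6 of 6 tested and a summed FPKM of 1237 to 1300 in WT and 1288 to 1390 in the libraries labelled *Fmr1* KO. Astrocyte markers were high as well, at 1595 to 1878 and 1665 to 1858.

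Of the 10 transcripts, limma called 1 higher in the libraries labelled *Fmr1* KO and 0 lower, at an adjusted p (Benjamini-Hochberg, over all loci tested) below 0.05. That transcript was Hrk. Over all loci tested, 0.0909% were called higher and 0.174% lower at this threshold. At an unadjusted p below 0.05 the count was also 1 higher and 0 lower, where 6.99% and 7.77% of all loci were called. The log2 change was above 0 for 6 of the 10, as for 51.7% of all loci. Hrk was known to pass this threshold when the genes were chosen, so the count describes the family and does not test it. Its FPKM was 18.2, 19.97 and 18.3 in WT and 26.2, 25.9 and 28.7 in the libraries labelled *Fmr1* KO. The groups did not overlap, and the lowest labelled *Fmr1* KO library stood above the highest WT library. The means were 18.8 ± 0.997 and 26.9 ± 1.55 (SD, n = 3). On the log2 scale Hrk rose by 0.51 with a standard error (SE) of 0.06 (limma adjusted p = 0.0176), or 1.43-fold with a 95% interval of 1.29 to 1.58. An exact two-sided permutation test of the 6 values gave p = 0.1, the smallest that 3 against 3 allows. By its p, Hrk ranked 17 of the 13195 loci, and by the size of its rise 118. When single libraries were left out, the change stayed between 0.47 and 0.56, but the adjusted p was above 0.05 in 5 of 6 fits, from 0.0525 without WT replicate 1 to 0.0958 without WT replicate 3, with 0.0624, 0.0819 and 0.0827 without *Fmr1* KO replicates 2, 3 and 1. It was 0.0378 without WT replicate 2. With all libraries, the call was also lost without an FPKM minimum (limma adjusted p = 0.0794) and without the mean-variance trend (0.0602). In bulk RNA, a change in the number of cells that express Hrk and a change in its RNA per cell cannot be told apart.

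**Figure D1:**
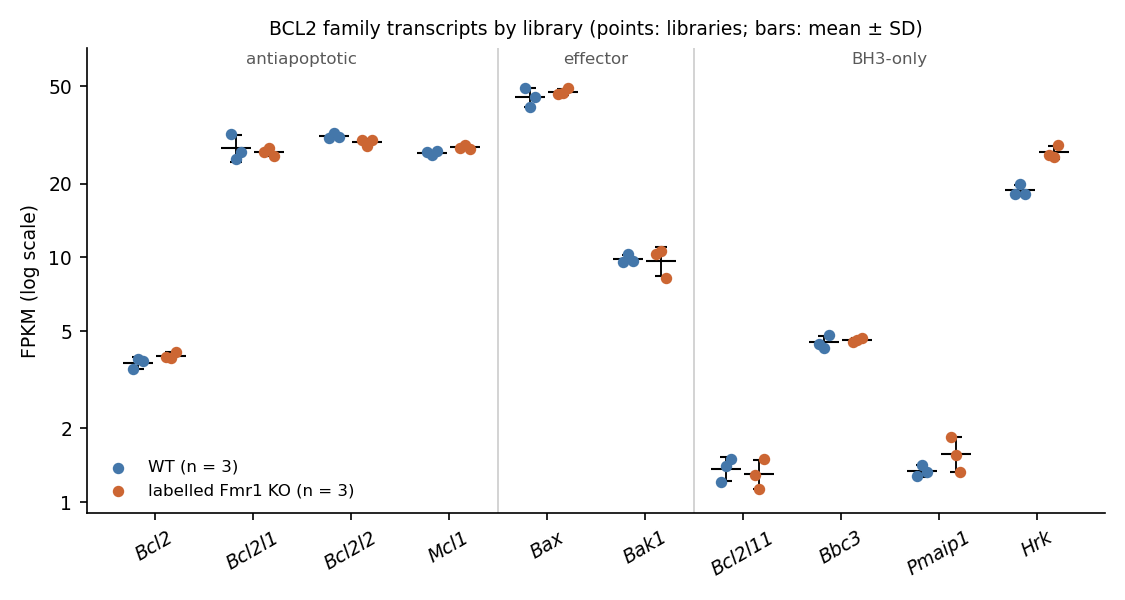
FPKM of the 10 BCL2 family genes in each library on a log axis, with WT in blue and the libraries labelled *Fmr1* KO in orange (points, 3 per genotype) and the mean ± SD in black. Hrk is at 18.2 to 19.97 in WT and 25.9 to 28.7 in the libraries labelled *Fmr1* KO, and none of the other 9 genes was called.

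Hrk lies on chromosome 5 of GRCm38, at 118169764 to 118189478 on the plus strand in the deposited table (XLOC_011769). The GENCODE vM21 annotation gives the gene 2 transcripts, of which 1 is coding, with 2 exons and 276 coding bases. There the gene runs from 118164648 to 118189478, so the bases printed below lie within its span. The gene is shown here by the 250 bases before its RefSeq start (GRCm38.p6, chr5:118169514-118169763, plus strand, 5′ to 3′), because it holds a site of the CREB and ATF type, the class of element through which c-Jun and ATF2 are known to act on this gene in neurons. Capitals mark the only match to TGANGTNA on either strand:
Hrk promoter: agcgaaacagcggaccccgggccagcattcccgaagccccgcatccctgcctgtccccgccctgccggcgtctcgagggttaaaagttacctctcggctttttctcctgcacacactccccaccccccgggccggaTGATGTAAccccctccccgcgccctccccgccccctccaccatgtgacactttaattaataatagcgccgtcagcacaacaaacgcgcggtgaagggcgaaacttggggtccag

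The match, TGATGTAA, lies at positions -114 to -107 from the start. TGANGTNA was chosen with this sequence in view, and 14.0% of 32851 promoters of this length hold it. The same window holds 2 copies of the GC box GGGCGG, both on the minus strand, at -194 to -189 and -87 to -82, a motif found in 32.7% of promoters. It holds neither the AP-1 motif TGANTCA (6.75% of promoters) nor the E-box CACGTG (6.02%). Promoter sequences were matched for 9 of the 10 genes, with 14 starts in all. The one other member with TGANGTNA was Bcl2, with TGAAGTAA at -69 to -62 and 7 GC boxes in the same window. A match is a description of letters, and binding was not measured in these libraries.

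The antiapoptotic transcripts were abundant apart from Bcl2, and none passed the test. Bcl2l1 (chr2:152749975-152834797) encodes BCL-XL, the main survival protein of mature neurons and the chief partner of HRK. Its FPKM was 32.01, 25.2 and 26.9 in WT and 27.0, 28.1 and 25.9 in the libraries labelled *Fmr1* KO. The groups overlapped, and WT replicate 1 was the highest of all 6 libraries. The log2 change was -0.05 (95% interval -0.24 to 0.15, limma adjusted p = 0.845), and it was 0.05 without WT replicate 1. The span of this locus also holds Cox4i2 (1.54 and 1.17 FPKM on average), and whether the counting used strand is not stated.

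Bcl2l2 (chr14:54883365-54890858) encodes BCL-W. It was the one member whose libraries labelled *Fmr1* KO all lay below WT, at 30.2, 28.6 and 30.2 against 30.9, 32.2 and 31.2 FPKM. The change was small, at -0.08 on the log2 scale (95% interval -0.19 to 0.03, limma adjusted p = 0.485). Mcl1 (chr3:95658410-95663179) encodes a short-lived protein needed for neuron survival during development. Its FPKM was 27.1, 26.3 and 27.2 in WT and 28.0, 28.8 and 27.9 in the libraries labelled *Fmr1* KO, without overlap. Its log2 change of 0.07 (95% interval -0.03 to 0.18, limma adjusted p = 0.518) did not pass the test, although Mcl1 had the tightest replicates of the family, with a coefficient of variation of 1.83% in WT and 1.72% in the libraries labelled *Fmr1* KO.

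Bcl2 (chr1:106538176-106714290), the founding member, is expressed in the central nervous system mainly before birth. It was the weakest of the antiapoptotic transcripts, at 3.48, 3.85 and 3.78 FPKM in WT and 3.94, 3.88 and 4.10 in the libraries labelled *Fmr1* KO. These did not overlap, yet the log2 change was 0.10 (95% interval -0.09 to 0.29, limma adjusted p = 0.634). In all, 4 of the 10 genes had groups that did not overlap: Hrk, Bcl2 and Mcl1 with the libraries labelled *Fmr1* KO above WT, and Bcl2l2 below. Over all loci tested, 10.8% were separated upwards and 10.3% downwards.

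Of the effectors, Bax was the most abundant member in every library, and neither gene passed the test. Bax (chr7:45461695-45468205) encodes the effector that neuronal apoptosis depends on most. Its FPKM was 49.1, 41.1 and 45.3 in WT and 46.6, 47.0 and 49.2 in the libraries labelled *Fmr1* KO, and the groups overlapped. The log2 change was 0.08 (95% interval -0.07 to 0.23, limma adjusted p = 0.634). Bak1 (chr17:27018035-27036378) encodes BAK, whose full-length form is scarce in neurons. Its FPKM was 9.61, 10.3 and 9.64 in WT and 10.3, 10.6 and 8.21 in the libraries labelled *Fmr1* KO, with the last of these the lowest of all 6. The log2 change was -0.03 (95% interval -0.25 to 0.19, limma adjusted p = 0.931), and without *Fmr1* KO replicate 3 it was 0.09. Its span also holds Ggnbp1, at 1.88 and 1.601 FPKM on average. Bax stood at 4.60 ± 0.571 times Bak1 in WT and 4.98 ± 0.882 times in the libraries labelled *Fmr1* KO (SD, n = 3).

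The other BH3-only genes among the members were far weaker than Hrk, and none of them passed the test. Bbc3 (chr7:16308320-16318334) encodes PUMA, a p53 target that also mediates p53-independent neuronal death. It had 4.44, 4.27 and 4.81 FPKM in WT and 4.503, 4.60 and 4.67 in the libraries labelled *Fmr1* KO, which overlapped. Its log2 change was 0.03 (95% interval -0.15 to 0.21, limma adjusted p = 0.911). Pmaip1 (chr18:66458604-66465558) encodes NOXA, a partner of MCL1. It had 1.28, 1.42 and 1.33 FPKM in WT and 1.85, 1.56 and 1.33 in the libraries labelled *Fmr1* KO, where the lowest library fell within the WT range. Its log2 change of 0.21 was the next largest in the family after Hrk, with a 95% interval from -0.16 to 0.58 (limma adjusted p = 0.600).

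Bcl2l11 (chr2:127838797-128162547) encodes BIM, which acts with HRK in trophic factor withdrawal. Its deposited locus (XLOC_003818) spans 324 kb, against 36.5 kb for the gene in GENCODE vM21, and the same row of values is also given for the neighbouring gene Acoxl. The FPKM of this locus was 1.20, 1.40 and 1.503 in WT and 1.29, 1.14 and 1.497 in the libraries labelled *Fmr1* KO, and it cannot be split between both genes. Its log2 change was -0.07 with a 95% interval of -0.46 to 0.33 (limma adjusted p = 0.902). The intervals of Pmaip1 and of this locus reach up to 0.58 and 0.33 on the log2 scale, so rises within them are not excluded for these weak transcripts.

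**Figure D2:**
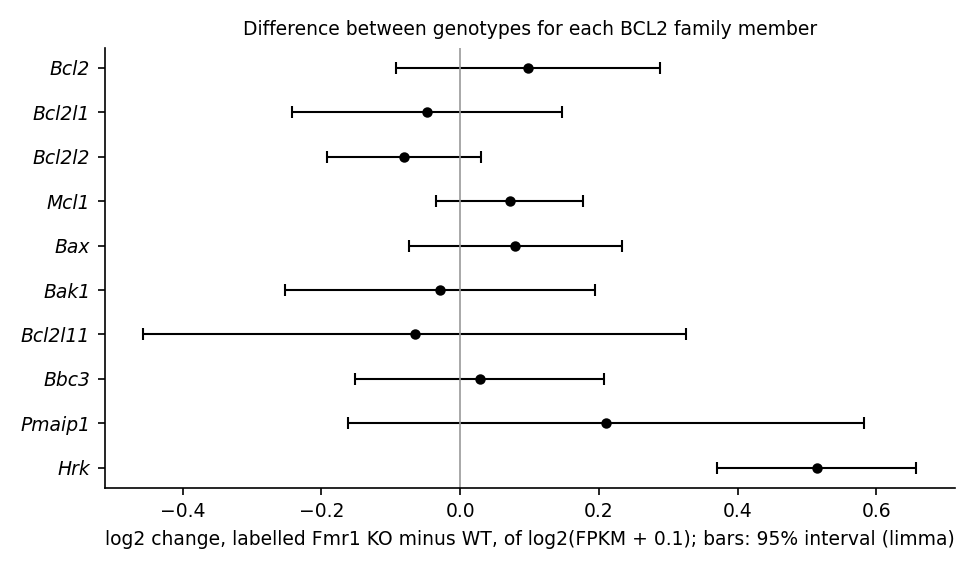
Log2 change of each gene, the libraries labelled *Fmr1* KO minus WT, on log2(FPKM + 0.1), with the 95% interval from limma (3 libraries per genotype). The interval of Hrk runs from 0.37 to 0.66, and the intervals of the other 9 genes include 0.

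The order of the levels was nearly the same in both genotypes. In WT it ran from Bax (45.2 FPKM) through Bcl2l2 (31.4), Bcl2l1 (28.0), Mcl1 (26.9), Hrk (18.8), Bak1 (9.86), Bbc3 (4.51) and Bcl2 (3.71) to the Bcl2l11 locus (1.37) and Pmaip1 (1.34). Neighbours in this order whose WT libraries overlapped were Bcl2l2 with Bcl2l1, Bcl2l1 with Mcl1, and Bcl2l11 with Pmaip1. In WT, Hrk stood below Mcl1 in every library, at 19.97 FPKM or less against 26.3 or more. In the libraries labelled *Fmr1* KO, Hrk (25.9 to 28.7) overlapped Bcl2l1 (25.9 to 28.1), which was its upper neighbour there. Hrk thus had place 5 in both orders, and among all loci tested its mean level was at the 74.8th percentile.

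The summed FPKM of the 10 genes was 171 ± 5.77 in WT and 181 ± 1.02 in the libraries labelled *Fmr1* KO (SD, n = 3). BH3-only genes made up 15.2 ± 1.06% of the sum in WT and 19.0 ± 0.780% in the libraries labelled *Fmr1* KO, and their ranges of 14.2 to 16.3% and 18.4 to 19.9% did not overlap. This share moved with Hrk. Of the FPKM of the 4 BH3-only members, Hrk alone gave 72.3% in WT and 78.2% in the libraries labelled *Fmr1* KO. The members leave out other BH3-only genes, among them Bad, at 16.7 FPKM in WT and 17.2 in the libraries labelled *Fmr1* KO. The part of Hrk in all BH3-only FPKM is therefore smaller. Without Hrk, the sum of the BH3-only members was 7.22 ± 0.375 and 7.48 ± 0.174 FPKM, and the groups overlapped. The antiapoptotic sum was 90.0 ± 3.09 and 88.9 ± 0.664 FPKM and the effector sum 55.0 ± 3.66 and 57.3 ± 0.345 FPKM, both with overlap. The antiapoptotic share was 52.6 ± 0.183% and 49.2 ± 0.638%, without overlap. Its denominator includes Hrk, so a higher Hrk lowers this share by arithmetic. The ratio of Bcl2l1 to Bax was 0.620 ± 0.0295 in WT and 0.568 ± 0.0372 in the libraries labelled *Fmr1* KO, and the ranges, 0.594 to 0.652 and 0.526 to 0.598, overlapped. These sums and ratios are descriptions, with no test, since the members were chosen.

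**Figure D3:**
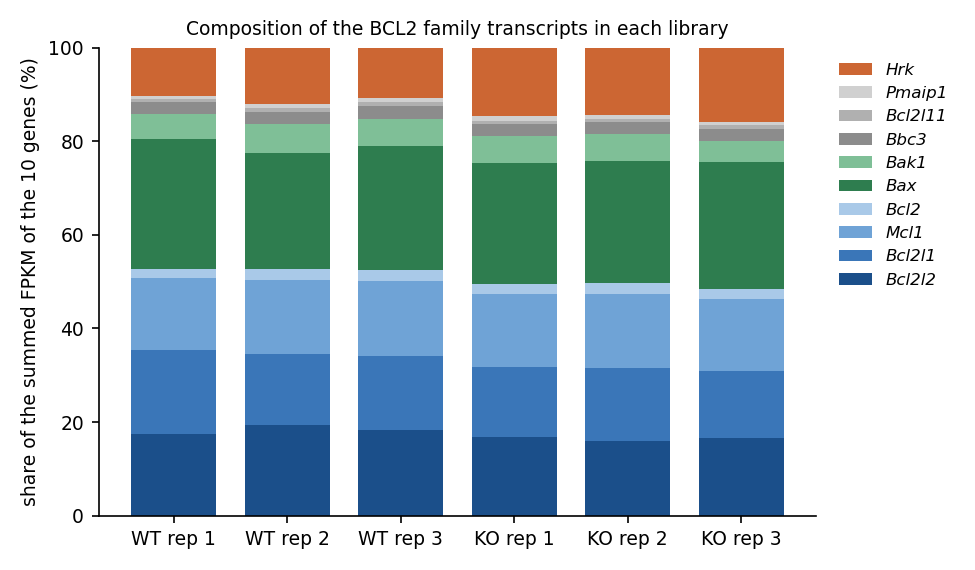
Share of the summed FPKM of the 10 genes (percent) given by each gene in each of the 6 libraries, with antiapoptotic genes in blue, effectors in green, Hrk in orange and the other BH3-only genes in grey. Hrk takes 10.3 to 12.03% of the sum in WT and 14.4 to 15.8% in the libraries labelled *Fmr1* KO.

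The rest of the family, 16 further symbols, held no call at an adjusted p below 0.05. Of these, 7 were tested, 4 were under the minimum of 1 FPKM in both genotypes, 4 were listed at 0 in every library (Bcl2a1a, Bcl2a1d, Bcl2l10 and Bik) and 1 has no row. The median log2 change of the 7 was -0.07, where that of all loci tested was 0.0050. Bok, a BAX-like gene expressed in neurons, was the lowest of them and the one whose libraries did not overlap, where 10.3% of all loci were separated downwards. Its mean FPKM was 8.51 and 7.26, and the log2 change was -0.23 (SE 0.07, limma adjusted p = 0.213). Bad, a BH3-only gene controlled by Akt phosphorylation, was the highest, at 16.7 and 17.2 FPKM with a log2 change of 0.05 (limma adjusted p = 0.783). The BH3-only gene Bmf stayed between 0.162 and 0.344 FPKM in all libraries.

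Genes that act after the mitochondrial step showed no call at an adjusted p below 0.05 either. In the list of apoptosome, caspase and inhibitor genes, 19 of 21 were tested, 8 with a positive and 11 with a negative log2 change, and the median was -0.01. At an unadjusted p below 0.05 in limma, 1 of the 19 was higher and 1 lower, where 6.99% and 7.77% of all loci were. The libraries of 3 genes were separated upwards and those of 1, Casp6, downwards, where 10.8% and 10.3% of all loci were. The lowest was Casp6, an executioner caspase also linked to axon pruning. It had 4.13 FPKM in WT and 2.83 in the libraries labelled *Fmr1* KO on average. Its log2 change was -0.53, as large in size as that of Hrk, but with a wider SE of 0.10 it reached an adjusted p of 0.0742 in limma. The highest was Casp2, at 4.46 and 5.53 FPKM, with a log2 change of 0.30 (SE 0.10, limma adjusted p = 0.222). Apaf1, the apoptosome scaffold, and Casp9, its caspase, had log2 changes of 0.16 and 0.07. Xiap, a caspase inhibitor gene, was at 0.04.

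JNK phosphorylates c-Jun, which drives Hrk in deprived neurons. In the list of JNK and c-Jun genes, 16 of 18 were tested and none passed an adjusted p of 0.05, with a median log2 change of 0.03. At an unadjusted p below 0.05 in limma, 3 of the 16 were higher and none was lower, where 6.99% and 7.77% of all loci were. Among the tested genes of the list, the same 3 had all libraries labelled *Fmr1* KO above WT, as 10.8% of all loci did. They were Map3k12, which encodes the dual leucine zipper kinase of axon injury signaling (log2 change 0.16, adjusted p = 0.242), Map3k10, a mixed lineage kinase gene (0.15, adjusted p = 0.287), and the scaffold gene Mapk8ip1 (0.11, adjusted p = 0.335). The last 2 were named after their values were seen. Jun itself was at 47.4 FPKM in WT and 46.0 in the libraries labelled *Fmr1* KO, a log2 change of -0.04. Atf3, a stress factor induced with Jun, was the lowest of the list at -0.13 (limma adjusted p = 0.736).

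In the p53 list, 17 of 20 genes were tested, 14 with a positive and 3 with a negative log2 change, and none passed an adjusted p of 0.05. The median was 0.09. The libraries labelled *Fmr1* KO all lay above WT in 7 of the 17 and below it in 0, and 4 were higher at an unadjusted p below 0.05. Over all loci, 51.7% had a positive log2 change, 10.8% were separated upwards and 6.99% were higher at that unadjusted p. The list was written with results of some p53 genes in these libraries known, so these counts are no independent evidence of its direction. Trp53 itself had a log2 change of 0.07. Pidd1, a p53 target that activates caspase-2, was the highest at 0.44 (SE 0.16, limma adjusted p = 0.257). Phlda3, another target, was the lowest at -0.06 (limma adjusted p = 0.748).

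The last list held other regulators and partners of BH3-only proteins, all 16 of which were tested without a call at an adjusted p below 0.05. Of these, 5 had a positive and 11 a negative log2 change, with a median of -0.03. At an unadjusted p below 0.05 in limma, 0 of the 16 were higher and 3 lower, where 6.99% and 7.77% of all loci were. The 3 were Ddit3, Atf4 and Foxo1, the last 2 named after their values were seen, with log2 changes of -0.17, -0.16 and -0.15. The libraries of 1 gene were separated upwards and those of 2 downwards, where 10.8% and 10.3% of all loci were. Ddit3, which encodes the endoplasmic reticulum stress factor CHOP, was the lowest at -0.17 (limma adjusted p = 0.216), with all libraries labelled *Fmr1* KO below WT. Mybl2, a cell cycle factor, was the highest at 0.35 (limma adjusted p = 0.427), with mean FPKM of 0.828 and 1.08.

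**Figure D4:**
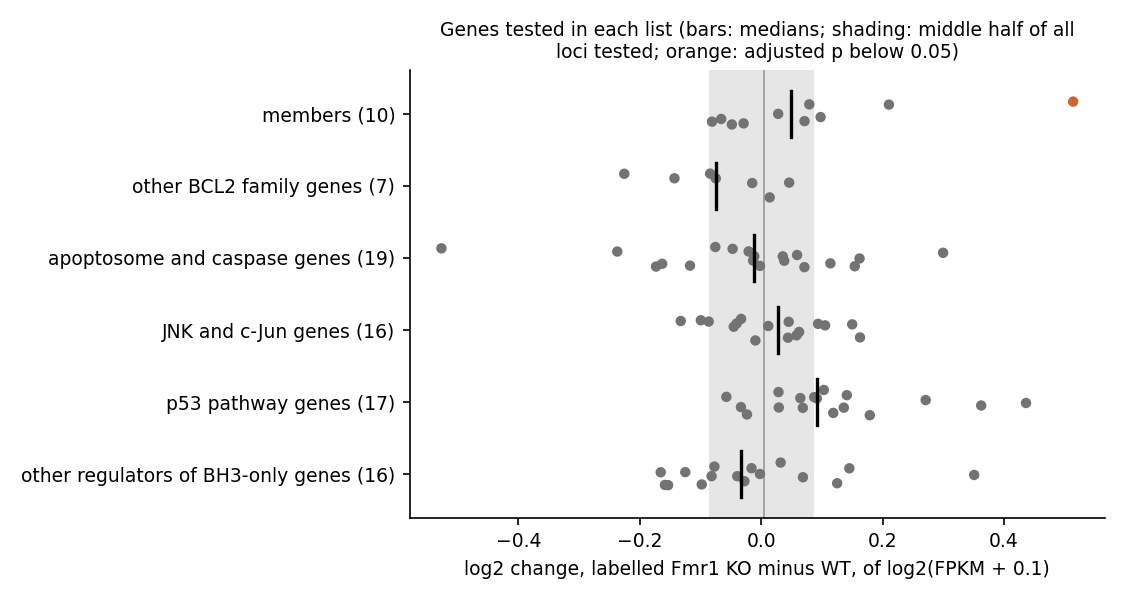
Log2 change of each gene tested, the libraries labelled *Fmr1* KO minus WT, in the family and in the 5 pathway lists (points, with the number tested in brackets), the median of each list (black bars) and the interquartile range of all loci tested (grey, -0.08 to 0.09). The only gene in orange, at an adjusted p below 0.05, is Hrk at 0.51, and the list medians lie between -0.07 and 0.09.

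None of the 6 tested loci nearest to Hrk on chromosome 5 passed the test. Of the 3 tested loci on the left, Fbxw8 ends 14.3 kb before Hrk and had a log2 change of -0.04, Tesc had -0.02 and Fbxo21 had 0.06. On the right, Rnft2 starts 1.26 kb after Hrk and had -0.05, 2410131K14Rik had 0.12 and Med13l had 0.20. Their limma adjusted p was between 0.347 and 0.957. Within 10 Mb of Hrk there were 218 other tested loci, of which 9.17% were below an unadjusted p of 0.05, against 14.8% of all loci. Of these, 1 passed an adjusted p of 0.05, the predicted gene Gm15446 at -8.24 Mb, which is listed at 0 in WT. No tested locus other than Hrk overlaps its span.

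**Figure D5:**
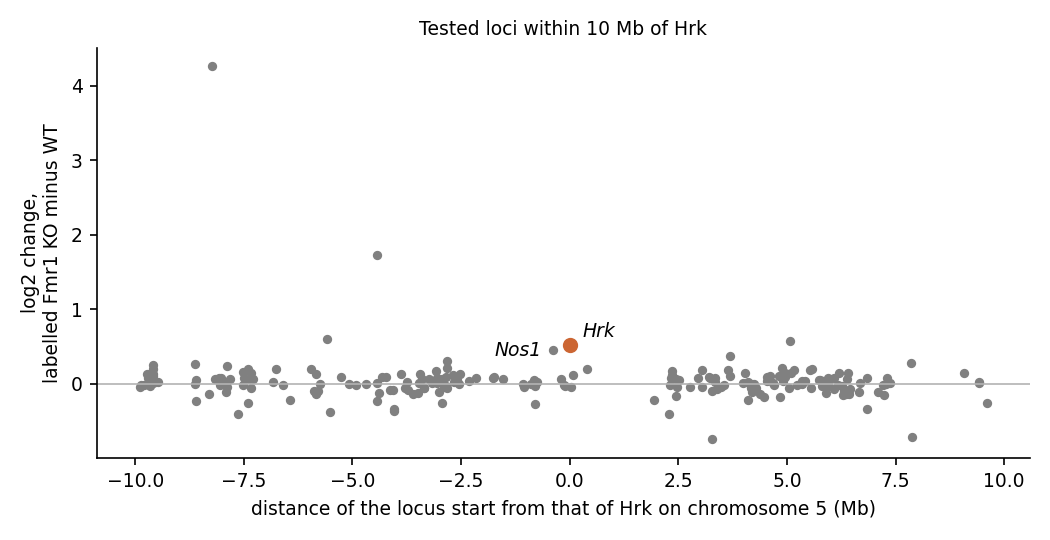
Log2 change of the 218 tested loci within 10 Mb of Hrk (grey points) and of Hrk (orange), the libraries labelled *Fmr1* KO minus WT, against the distance of each locus start from that of Hrk in Mb. Most loci lie near 0, Hrk is at 0.51 and Nos1 at 0.45, and the point above 4 is Gm15446.

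The genes whose profile over the 6 libraries was most like that of Hrk were found from the root mean square difference of their centred log2 values, where a flat profile would differ from Hrk by 0.26. They were Nos1 (0.06), Knl1 (0.08), Dlx1 (0.09), Znrf2 (0.09) and Dtl (0.09). Nos1, the neuronal nitric oxide synthase gene, had an FPKM of 9.21, 10.6 and 9.60 in WT and 12.4, 13.6 and 14.2 in the libraries labelled *Fmr1* KO. Its log2 change was 0.45 (limma adjusted p = 0.0654). It lies 211 kb from Hrk on the same chromosome, with 3 tested loci between them that were described above. Dlx1, a homeobox gene of interneurons, had 6.78, 7.26 and 6.26 in WT and 8.46, 8.97 and 9.03 in the libraries labelled *Fmr1* KO (log2 change 0.38, limma adjusted p = 0.0766). Knl1, Znrf2 and Dtl had log2 changes of 0.49, 0.35 and 0.37 and adjusted p of 0.251, 0.0753 and 0.212 in limma. With 6 libraries in 2 groups, such a search returns genes with a like difference between the genotypes.

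The makeup of the cultures was read from cell type markers. The 6 excitatory neuron markers, none of them at 0, summed to 827 to 862 FPKM in WT and 861 to 931 in the libraries labelled *Fmr1* KO. Inhibitory neuron markers, also 6 of 6, summed to 307 to 326 and 288 to 336, with 3 higher and 3 lower. The log2 changes were -0.07 for Gad1, -0.08 for Slc32a1 and -0.07 for Sst. They were 0.11 for Gad2, 0.38 for Dlx1 and 0.57 for Dlx2. The 5 proliferation markers summed to 29.5 to 34.8 and 34.9 to 40.5, and the 5 oligodendrocyte precursor markers to 326 to 382 and 379 to 419. At an unadjusted p below 0.05 in limma, 3 and 2 of these were higher, where 6.99% of all loci were. Microglia markers summed to 3.75 to 6.01 and 0.895 to 2.38, with 3 of 7 tested and C1qa, C1qb, Aif1 and Tmem119 at 0 in at least 1 library. All 3 tested were lower at an unadjusted p below 0.05 in limma, as 7.77% of all loci were. Their libraries were separated downwards, as in 10.3% of all loci. Their log2 changes were -2.33 to -1.83, at levels near the minimum of 1 FPKM. Of the 4 Y-linked genes, limma called 3 higher in the libraries labelled *Fmr1* KO at an adjusted p below 0.05, where 0.0909% of all loci were. The sums over all 4 were 18.7 to 19.7 in WT and 35.4 to 38.2 in the libraries labelled *Fmr1* KO. In all 4 Y-linked genes every library labelled *Fmr1* KO lay above every WT library, as in 10.8% of all loci. This difference ran with the genotype label, so the sex makeup of the cultures and the genotype cannot be told apart. The part of these marker differences in the Hrk result was not tested.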

How the data were processed

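RNA-seq was done by the authors on total RNA of hippocampal cultures, with 3 libraries labelled WT and 3 labelled *Fmr1* KO. According to the methods, adapters were clipped with Fastx Clipper, reads were trimmed with sickle and mapped to GRCm38 with TopHat2, and genes were built with Cufflinks and compared with Cuffdiff. Tool versions and the scaling between libraries are not stated in the methods or labels. The deposited FPKM of the 6 libraries were used. The columns of group FPKM, fold change, p-value and q-value hold the authors' own comparison and were not used.

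The 48100 rows were reduced to 47086 loci. Loci with a mean of at least 1 FPKM in either genotype were compared as log2(FPKM + 0.1) in limma 3.58.1 (R 4.3.3), fitted on genotype alone with trend = TRUE, and p-values of the 13195 loci were adjusted by Benjamini-Hochberg. The change of weak genes is understated on this scale. The fit was tested on simulated data. Locus starts were moved to 1-based coordinates.

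Members and lists were chosen with earlier results of these data known. Named genes were the members, *Fmr1*, every called gene and the highest and lowest gene of each list, other family genes with separated libraries, the 3 tested loci on either side of Hrk and the 5 loci most like it. Other genes were added after their values were seen.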

Additional observations from a re-analysis of the deposited data

How the results depend on the processing

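The log2 change of Hrk kept its direction under all alternatives. With all 6 libraries kept it lay between 0.49 and 0.52, and its adjusted p in limma ranged from 0.0098 among loci of at least 5 FPKM to 0.0794 without an FPKM minimum. The count of members called higher was 0, with Hrk at 0.51, without an FPKM minimum and without the mean-variance trend (adjusted p = 0.0602). With each library left out in turn, Hrk was at 0.47 to 0.56, 0 to 1 members were called, and 1 to 2 were higher at an unadjusted p below 0.05, the additional one being Bax without WT replicate 1. Over all loci, 12 were called higher and 23 lower at an adjusted p below 0.05. This was 6 and 9 without an FPKM minimum, 7 and 14 without the trend, 20 and 34 with a minimum of 5, and 4 to 8 and 10 to 14 with each library left out. At an unadjusted p below 0.05, those fits gave 607 to 1014 higher. Some small changes turned sign with a library left out: Bcl2l1 ranged from -0.12 to 0.051, Bak1 from -0.10 to 0.087, Bcl2l11 from -0.16 to 0.023, Bbc3 from -0.0094 to 0.075 and Bad from -0.0064 to 0.080. No pathway list gained a call in any alternative. With the replicate number as a block, 29 loci were called higher and 36 lower, and Hrk kept its call (adjusted p = 0.0304). Same-numbered libraries shared deviations with r of 0.24, 0.06 and 0.08 across loci. Replicate 1 of either genotype had an r of -0.15 to -0.12 with replicates 2 and 3 of the other. Replicates 2 and 3 were not told apart in this way, so the numbers were not taken as pairs. A structure shared by both replicates numbered 1 was not tested. Not every library correlated best with its own number: WT replicate 2 was closer to *Fmr1* KO replicate 3, at 0.066. Without read depth, changes in Pmaip1 and the Bcl2l11 locus are limited by the spread between libraries.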
